A study of Mus musculus with 30 samples.

Results

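The effect of adding leucine to metformin was described across all genes in serum-deprived C2C12 myotubes, by comparing the 6 libraries of MET+LEU with the 6 libraries of MET. These 12 libraries were chosen by their labels from the 30 of the series, and 15907 of the 55487 genes counted had enough reads to be tested. C2C12 is an immortalized mouse myoblast line (wild type in the labels) whose cells fuse into multinucleated myotubes when serum is lowered. All cells were differentiated for 4 days in low glucose medium with 2% horse serum, and RNA was collected 4 days later, on day 8. During the last 4 days the MET cells had no serum and 100 nM added metformin. The MET+LEU cells had no serum, 100 nM added metformin and 500 nM added leucine. SD cells had no serum and neither agent added, LEU cells had no serum and 500 nM added leucine, and 2% HS cells stayed on horse serum, with 6 libraries in each group. The leucine content of the medium itself is not given in the sources used here. All 5 groups come from this cell line alone. The labels do not say whether replicates were separate cultures, so p-values measure only the spread between these libraries, which may be technical.

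Leucine is an essential branched-chain amino acid that muscle both builds into protein and oxidizes. It is sensed in the cytosol by Sestrin proteins, whose release lets the Rag GTPases bring the kinase mTORC1 to the lysosome, where it promotes ribosome production and translation. Metformin is a biguanide that acts on mitochondrial respiration and on AMPK, a kinase that restrains mTORC1. Myotubes have left the cell cycle and fill with sarcomeres, the contractile units of myosin thick filaments and actin thin filaments, while a C2C12 culture also keeps mononuclear cells that can still divide.

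The 12 libraries held 13926677 to 18322581 counts, so that 3 counts in a library, the most that a count of 0 allows, corresponded to 0.164 to 0.215 CPM (the counts of a gene scaled to a common library size), for counting error only. Levels are given as CPM with TMM factors, which correct for differences in composition between libraries. The summed level of 8 myotube markers was 8858 to 9259.9 CPM in MET and 9149 to 10348 CPM in MET+LEU. Of marker lists for cells that such a culture should lack, 0 of 6 adipocyte, 1 of 6 immune and 2 of 6 endothelial genes reached 10 counts in any of the 12 libraries. Of 6 fibroblast or fibroadipogenic markers, 5 did, and the list summed to 68.7 to 77.2 CPM in MET and 68.9 to 76.9 CPM in MET+LEU, with Tcf21 at 0. Myoblast markers summed to 563 to 590.5 CPM in MET and 467 to 606 CPM in MET+LEU, with the lowest sum in MET+LEU replicate 6. Ribosomal RNA, most of which is depleted before sequencing, took 3.77% ± 4.79 (SD, n = 6) of the counts in MET+LEU and 1.03% ± 0.298 (n = 6) in MET (exact permutation test, two-sided, p = 0.00433). MET+LEU replicate 6 stood apart, with 5.85% of its counts on nuclear and 7.64% on mitochondrial ribosomal RNA genes. The 29 other libraries reached at most 1.96% and 0.76%. Without replicate 6 the MET+LEU share was 1.82% ± 0.55 (n = 5), still above MET (exact permutation test, two-sided, p = 0.00866). Many results are therefore also given without this library.

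**Figure D1:**
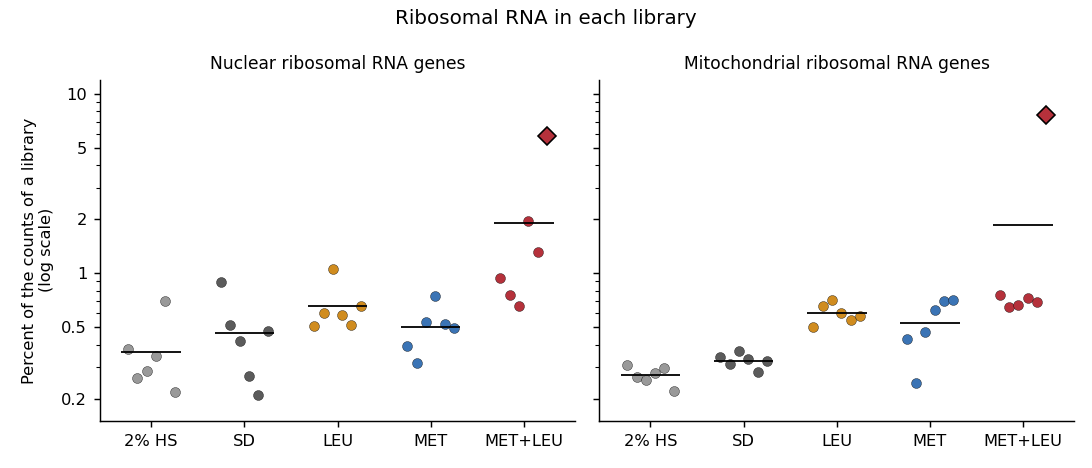
Share of each library's counts on nuclear and mitochondrial ribosomal RNA genes, in percent, for the 6 libraries of each group. MET+LEU replicate 6 lies at 5.85% and 7.64%, above all other libraries.

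Adding leucine to metformin moved many genes by small amounts. For each gene below, the log2 fold change in MET+LEU vs. MET is given with its SE and its adjusted p from 1 test across all genes. Of the genes tested, 881 were upregulated (5.54%) and 501 downregulated (3.15%) in MET+LEU vs. MET at an adjusted p under 0.05 (quasi-likelihood F test of edgeR, p-values adjusted by Benjamini-Hochberg over all genes tested), 8.69% in all. The median absolute log2 fold change of these 1382 genes was 0.22, and 1208 changed by less than 0.5. A change of at least 1 was found in 30, of which 12 rose and 18 fell. Without MET+LEU replicate 6, 726 genes passed (4.52%), 426 upregulated (2.65%) and 300 downregulated (1.87%). With only the MET and MET+LEU libraries in the fit, 589 genes passed. Of the genes called without replicate 6, 688 passed in the same direction with all 12 libraries, which is 94.8% of the shorter list and 49.8% of the longer. With upper-quartile scaling in place of TMM the calls split into 631 upregulated and 637 downregulated, 49.8% upregulated against 63.7%, so the balance of directions depended on the scaling. In 520 of the 1382 genes the MET+LEU libraries did not overlap with the MET libraries. Over all genes tested, 2.48% lay apart upward and 1.28% downward.

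**Figure D2:**
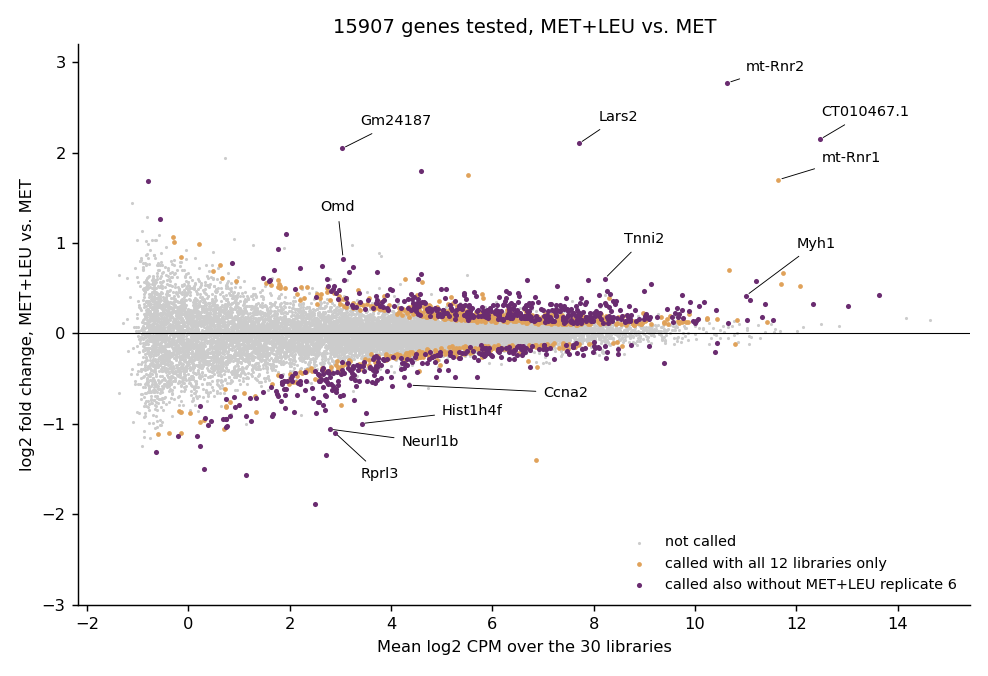
Log2 fold change in MET+LEU vs. MET against mean log2 CPM, 1 point per gene tested (15907), with called genes coloured by whether they also passed without MET+LEU replicate 6. Most called genes lie within 0.5 of 0, and mt-Rnr2 (2.77), CT010467.1 (2.15), Lars2 (2.10) and Gm24187 (2.05) lie above 2.

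Sarcomere genes were higher with leucine. Of 42 genes for proteins of the thick filament, thin filament, Z-disc and M-band, 41 were tested and 27 (65.9%) were upregulated, against 5.54% of all genes tested. Their median log2 fold change was 0.27, against 0.0074 over all genes. edgeR called 0 of them lower, and that count was also 0 at an unadjusted p under 0.05, 0 by DESeq2 and 0 by limma-voom. Without replicate 6, 26 were upregulated and the median was 0.21. Over 26 alternative fits 19 to 30 were upregulated. In bulk libraries a larger share of muscle cells and more RNA per cell cannot be told apart, and the same holds for every gene group that follows.

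Myosin heavy chains, the motor proteins of the thick filament, differ between fibre types and developmental stages. Myh1, for fast myosin IIx (chr11:67200052-67224575, GRCm38), was measured at 1679 to 1965 CPM (median 1792) in MET and 2218 to 3132 (median 2251) in MET+LEU. The groups did not overlap and replicate 6 was the highest library (0.42 ± 0.06, adjusted p = 2.92e-05, against 0.32 and 2.38e-08 without replicate 6). Myh4, for fast myosin IIb, was measured at 64 to 70.8 CPM (median 67.4) in MET and 79.8 to 128 (median 85.5) in MET+LEU, again without overlap (0.47 ± 0.09, adjusted p = 0.00311, against 0.35 and 0.00339 without replicate 6). The slow isoform Myh7 was measured at 156 to 197 CPM (median 178) in MET and 194 to 271 (median 241) in MET+LEU, with 5 of 6 MET+LEU libraries above every MET library (0.39 ± 0.08, adjusted p = 0.00289, against 0.37 and 0.00847 without replicate 6). Fast and slow isoforms were thus among the genes that passed. Embryonic Myh3 was measured at 1011 to 1252 CPM (median 1101) in MET and 1192 to 2049.9 (median 1307) in MET+LEU (0.34 ± 0.09, adjusted p = 0.0143, against 0.20 and 0.0019 without replicate 6), and replicate 6 was far above the rest. Neonatal Myh8 was measured at 628 to 738 CPM (median 690.3) in MET and 732 to 1125 (median 761) in MET+LEU (0.27 ± 0.07, adjusted p = 0.0177, against 0.15 and 0.0098 without replicate 6), with 4 of 6 MET+LEU libraries above MET. Myh2, for fast myosin IIa, did not pass: it was measured at 164 to 195 CPM (median 180.5) in MET and 159.6 to 305 (median 224) in MET+LEU, and the lowest of the 12 values was also in MET+LEU (0.36 ± 0.12, adjusted p = 0.0641).

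Troponins, which bind calcium and gate contraction on the thin filament, were upregulated in fast and slow forms with all 12 libraries. Tnni2, fast troponin I (chr7:142441808-142444410), was measured at 239 to 320.5 CPM (median 274) in MET and 324 to 704 (median 392) in MET+LEU. All 6 MET+LEU libraries lay above MET, and replicate 6 lay far above the other 5 (0.60 ± 0.12, adjusted p = 0.00368, against 0.40 and 0.00122 without replicate 6). With all 12 libraries, Tnnc2 (0.59, adjusted p = 0.0068) and Tnnt3 (0.55, adjusted p = 0.00266) of fast muscle rose. So did slow Tnnt1 (0.47, adjusted p = 0.0155) and cardiac-type Tnnt2 (0.43, adjusted p = 0.00605). Tropomyosins, which lie along the actin filament, rose as well, with Tpm1 at 0.30 ± 0.04, adjusted p = 2.68e-05, against 0.24 and 1.57e-05 without replicate 6. With all 12 libraries Tpm2 was at 0.36, adjusted p = 4.16e-05 and Tpm3 at 0.25, adjusted p = 0.000978. Myom2, an M-band protein that ties thick filaments together (chr8:15057653-15133541), had the smallest p of the list and was measured at 695 to 770.4 CPM (median 714) in MET and 807 to 1009.5 (median 859) in MET+LEU, without overlap (0.28 ± 0.04, adjusted p = 1.06e-05, against 0.23 and 1.18e-05 without replicate 6). The largest fold among called genes of the sarcomere list, with all 12 libraries, was that of Myl2, a regulatory myosin light chain (0.74 ± 0.11, adjusted p = 3.85e-05). Its mean level was low, at 6.78 CPM in MET and 11.2 CPM in MET+LEU. Values without replicate 6 are not given here for Tnnc2, Tnnt3, Tnnt1, Tnnt2, Tpm2, Tpm3 and Myl2. Skeletal and cardiac actin did not pass, with log2 fold changes of 0.03 for Acta1 and 0.06 for Actc1. Neither did Ttn, for titin (0.15), or Des, for desmin (0.10).

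Promoters of muscle genes often carry a CArG box, to which serum response factor binds, and E-boxes, to which MyoD and myogenin bind. In the 250 bases before the start of 26 sarcomere genes with a single RefSeq promoter, a CArG box on either strand was present in 4 (15.4%) and the E-box letters CAGCTG in 8 (30.8%). Over the 8435 tested genes with a single promoter the shares were 1.17% and 12.1%, and over all 22862 genes with a single promoter 1.38% and 12.7%. A match describes letters and is not evidence of binding. Of the genes considered that had a CArG box, the 2 upregulated genes with the smallest p are shown. Both were picked from the upregulated genes of the sarcomere list, so their direction was fixed by the choice. The stretches are from RefSeq (GRCm38.p6, plus strand, 5′ to 3′, the CArG box in capitals). Myom1, an M-band protein (0.27 ± 0.05, adjusted p = 0.000201), has this stretch at chr17:71019307-71019556 and Myh4 at chr11:67237562-67237811, and the boxes begin 99 and 104 bases before the start.
Myom1: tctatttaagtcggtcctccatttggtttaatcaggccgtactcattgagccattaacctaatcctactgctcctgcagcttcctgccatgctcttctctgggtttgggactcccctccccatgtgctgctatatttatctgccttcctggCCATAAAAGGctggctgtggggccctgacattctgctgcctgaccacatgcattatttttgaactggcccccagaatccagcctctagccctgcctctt
Myh4: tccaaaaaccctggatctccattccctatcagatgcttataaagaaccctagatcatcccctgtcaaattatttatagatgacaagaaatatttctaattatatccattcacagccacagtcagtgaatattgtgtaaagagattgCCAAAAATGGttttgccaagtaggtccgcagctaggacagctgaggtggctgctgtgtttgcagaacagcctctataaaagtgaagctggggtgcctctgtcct

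Other muscle gene lists had medians closer to 0. Calcium handling and excitation genes, which couple the membrane signal to calcium release, had 9 of 28 upregulated (32.1%, against 5.54% of all genes). The median was 0.10, and 7 were upregulated without replicate 6. Trdn, for triadin, a junction protein of the calcium store, was measured at 57 to 65.4 CPM (median 60.7) in MET and 66.1 to 103 (median 79.4) in MET+LEU, without overlap (0.40 ± 0.07, adjusted p = 0.000417, against 0.32 and 0.000167 without replicate 6). The calcium channel subunit Cacna2d1 (0.18 ± 0.04, adjusted p = 0.0013) and Musk, the receptor kinase of the neuromuscular junction (0.14 ± 0.03, adjusted p = 0.00393), rose too. Musk averaged 176 CPM in SD, 173 in LEU, 158 in MET and 174 in MET+LEU, so its MET+LEU mean lay near that of SD. Of 23 tested myogenic factors and fusion genes, 3 rose (13%, against 5.54% of all genes) and 3 fell (13%, against 3.15%), with 1 and 1 without replicate 6. Mef2c, a transcription factor of sarcomere genes, was measured at 767 to 873 CPM (median 822) in MET and 920.1 to 1025 (median 987) in MET+LEU, without overlap (0.26 ± 0.04, adjusted p = 4.44e-05, against 0.25 and 4.95e-05 without replicate 6). The muscle cadherin Cdh15 (-0.17 ± 0.04, adjusted p = 0.00566, against -0.14 and 0.0109 without replicate 6) and the fusion peptide gene Mymx (-0.21 ± 0.07, adjusted p = 0.035, against -0.19 and 0.0808 without replicate 6) fell. The master regulators did not pass, with log2 fold changes of -0.01 for Myod1, -0.07 for Myog and -0.07 for Myf5.

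Genes of cell division were lower with leucine. Of 50 genes for cyclins, their kinases, DNA replication and mitosis, 27 (54%) were downregulated, against 3.15% of all genes tested, and the median log2 fold change was -0.36. edgeR called 0 higher, and that count was also 0 at an unadjusted p under 0.05, 0 by DESeq2 and 0 by limma-voom. Without replicate 6, 26 were downregulated, with a median of -0.39, and 19 to 31 over the 26 alternative fits. Ccna2, cyclin A2 of S phase and mitosis (chr3:36564865-36572150), was measured at 20.2 to 27.7 CPM (median 22.7) in MET and 13.9 to 19 (median 15.3) in MET+LEU. Every MET+LEU library was below every MET library, and replicate 6 was the highest of MET+LEU (-0.57 ± 0.08, adjusted p = 8.31e-06, against -0.64 and 1.39e-07 without replicate 6). The mitotic kinesin Kif20a (-0.55 ± 0.09, adjusted p = 0.000164) and the topoisomerase Top2a, which untangles chromosomes (-0.48 ± 0.08, adjusted p = 0.000166), also separated the groups fully. The largest falls among called genes of the list were those of the mitotic kinases Plk1 (-0.69, adjusted p = 0.000238, against -0.61 and 0.000603 without replicate 6) and Aurkb (-0.68, adjusted p = 0.00104, against -0.59 and 0.0035 without replicate 6). Levels were low, with Plk1 at a mean of 7.47 CPM in MET and 4.61 CPM in MET+LEU. Cyclin D1 of G1 (Ccnd1, -0.02), its kinase Cdk4 (-0.06) and the replication clamp Pcna (-0.02) did not pass.

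Replication-dependent histones, made in S phase to package new DNA, were lower as well. Of 67 clustered histone genes, 56 were tested and 29 (51.8%) were downregulated, against 3.15% of all genes tested, with a median log2 fold change of -0.43. edgeR called 0 higher, with 1 at an unadjusted p under 0.05, 0 by DESeq2 and 0 by limma-voom. Without replicate 6, 24 were downregulated (median -0.41), and 24 to 33 over the alternative fits. Hist1h4f, a histone H4 gene (chr13:23551258-23551648), was measured at 11.4 to 15.6 CPM (median 13.8) in MET and 4.29 to 9.37 (median 6.82) in MET+LEU. The groups did not overlap and replicate 6 was the lowest library (-1.0 ± 0.13, adjusted p = 8.31e-06, against -0.91 and 1.98e-06 without replicate 6). The H4 gene Hist1h4k (chr13:21750194-21750505) was measured at 12.9 to 17.7 CPM (median 14.3) in MET and 4.54 to 10.4 (median 8.17) in MET+LEU, without overlap (-0.88 ± 0.12, adjusted p = 9.72e-06). Of the histone H3 genes, Hist1h3h (chr13:21717659-21718069) was measured at 5.57 to 8.04 CPM (median 7.29) in MET and 1.62 to 5.06 (median 3.93) in MET+LEU (-0.88 ± 0.15, adjusted p = 0.000201, against -0.76 and 0.00019 without replicate 6). Hist1h3b (chr13:23752267-23752886) was measured at 9.33 to 15 CPM (median 11.4) in MET and 4.56 to 8.79 (median 7.11) in MET+LEU (-0.73 ± 0.12, adjusted p = 8.87e-05, against -0.72 and 0.000115 without replicate 6), and neither H3 gene overlapped between the groups. Histone genes are near-identical copies, and how reads that match several of them were counted is not given in the sources used here, so values of single copies are uncertain.

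Promoters of cell cycle and histone genes are known for CCAAT boxes, to which the factor NF-Y binds. The letters CCAAT on either strand stood in the 250 bases before the start in 27 of 36 cell cycle genes (75%) and 41 of 50 histone genes (82%) with a single RefSeq promoter. The share was 37.5% over the tested genes with a single promoter and 34.7% over all genes with a single promoter. The cell cycle homology letters TTTGAA, on either strand, stood in 25% of the cell cycle and 44% of the histone promoters, against 10.6% of those tested and 16.7% of all. The E2F letters TTGGCGC or TTCCCGC, on either strand, stood in 22.2% and 10%, against 10.5% and 5.63%, and TTGGCGC can overlap a CCAAT box read on the other strand. For each list 2 downregulated genes with a CCAAT box are shown, those with the smallest p among the genes considered. Not every gene was considered, and Kif20a, with a smaller p than Top2a, was left out of the choice. The stretches run 5′ to 3′ on the coding strand (RefSeq, GRCm38.p6), with CCAAT, or ATTGG where the box is on the other strand, in capitals. Top2a has this stretch at chr11:99024190-99024439 (minus strand) and holds 6 boxes, and Plk1 at chr7:122159185-122159434 (plus) holds 1. Hist1h3b at chr13:23752095-23752344 (plus) and Hist1h3h at chr13:21717378-21717627 (plus) hold 2 each.
Top2a: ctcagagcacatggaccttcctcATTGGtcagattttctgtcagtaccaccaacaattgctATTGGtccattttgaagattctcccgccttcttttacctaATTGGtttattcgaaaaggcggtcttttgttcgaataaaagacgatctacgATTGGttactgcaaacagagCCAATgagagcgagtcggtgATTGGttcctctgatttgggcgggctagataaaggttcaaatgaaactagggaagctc
Plk1: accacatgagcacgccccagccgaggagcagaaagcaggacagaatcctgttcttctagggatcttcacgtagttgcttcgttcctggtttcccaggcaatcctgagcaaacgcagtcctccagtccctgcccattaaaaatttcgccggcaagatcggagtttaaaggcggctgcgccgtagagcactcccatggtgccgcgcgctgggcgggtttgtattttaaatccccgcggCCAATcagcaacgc
Hist1h3b: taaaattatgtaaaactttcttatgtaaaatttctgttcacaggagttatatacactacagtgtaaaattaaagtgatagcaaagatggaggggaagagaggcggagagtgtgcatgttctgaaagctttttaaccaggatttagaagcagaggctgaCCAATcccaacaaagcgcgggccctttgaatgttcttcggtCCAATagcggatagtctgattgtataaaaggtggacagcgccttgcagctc
Hist1h3h: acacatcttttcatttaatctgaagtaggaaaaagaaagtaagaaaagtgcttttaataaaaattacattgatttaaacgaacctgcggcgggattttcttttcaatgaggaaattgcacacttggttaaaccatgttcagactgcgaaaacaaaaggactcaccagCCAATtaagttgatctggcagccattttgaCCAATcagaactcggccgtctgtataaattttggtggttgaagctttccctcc

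**Figure D3:**
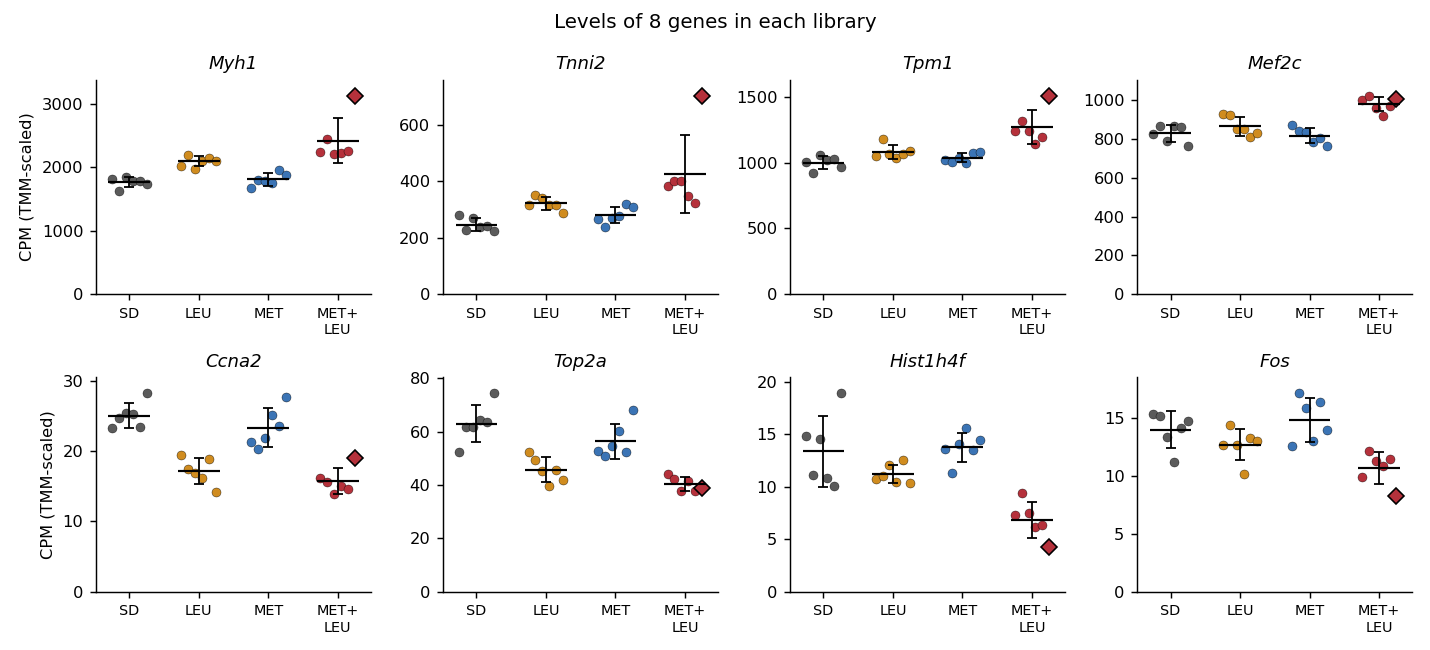
TMM-scaled CPM of 8 genes in the 6 libraries of SD, LEU, MET and MET+LEU, with bars for the mean ± SD and a diamond for MET+LEU replicate 6. Myh1, Tnni2, Tpm1 and Mef2c are higher in every MET+LEU library than in every MET library, and Ccna2, Top2a, Hist1h4f and Fos are lower.

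Immediate early genes, which growth signals switch on within minutes through the kinase ERK, were in part lower. Of 35 tested, 6 were downregulated (17.1%, against 3.15% of all genes) and 7 without replicate 6, with a median of -0.09. Fos, which pairs with Jun as AP-1, was measured at 12.6 to 17.1 CPM (median 14.9) in MET and 8.26 to 12.2 (median 11.1) in MET+LEU, without overlap (-0.46 ± 0.09, adjusted p = 0.00137, against -0.41 and 0.0031 without replicate 6). The zinc finger factors Klf10 (-0.18, adjusted p = 0.00289) and Klf4 (-0.25, adjusted p = 0.00785), Ier2 (-0.25, adjusted p = 0.0232) and the phosphatase Dusp1 (-0.17, adjusted p = 0.013) fell too. Jun (0.07) and Fosl1 (0.41) did not pass.

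Leucine is sensed, carried into the cell and broken down by separate sets of genes. Of 44 tested genes of leucine sensing and mTORC1, 3 rose (6.82%, against 5.54% of all genes) and 1 fell (2.27%, against 3.15%), close to the shares over all genes, and the counts were 1 and 0 without replicate 6. Rps6kb1, the S6 kinase that mTORC1 activates, was measured at 96.1 to 106 CPM (median 101) in MET and 111 to 152 (median 114) in MET+LEU, without overlap but with replicate 6 apart (0.25 ± 0.06, adjusted p = 0.00427, against 0.16 and 0.0136 without replicate 6). Mtor itself (0.02, adjusted p = 0.838) and the leucine sensor Sesn2 (-0.13, adjusted p = 0.297) did not pass. Of 18 tested amino acid transporters 3 fell (16.7%, against 3.15% of all genes), 1 without replicate 6 (against 1.87%), and 1 had a log2 fold change above 0 (median -0.12). Slc15a4, a lysosomal carrier of histidine and peptides, was measured at 26.4 to 31.7 CPM (median 29.2) in MET and 20.9 to 28 (median 24.3) in MET+LEU, with 5 of 6 MET+LEU libraries below MET (-0.26 ± 0.07, adjusted p = 0.0124, against -0.23 and 0.031 without replicate 6). Slc7a5, the main leucine carrier of the plasma membrane, was measured at 117 to 132 CPM (median 120.0) in MET and 100.0 to 115 (median 114) in MET+LEU, without overlap (-0.13 ± 0.04, adjusted p = 0.035, against -0.11 and 0.0817 without replicate 6). Its partner Slc3a2 did not pass (-0.06, adjusted p = 0.35).

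Of 26 genes of branched-chain amino acid breakdown 3 rose (11.5%, against 5.54% of all genes), and 3 without replicate 6. Dld, a subunit shared by the branched-chain and pyruvate dehydrogenases, was measured at 131 to 151 CPM (median 143) in MET and 161 to 194 (median 166) in MET+LEU, without overlap (0.26 ± 0.04, adjusted p = 8.95e-05, against 0.21 and 0.00026 without replicate 6). The transaminase Bcat2 of the entry step (0.00) and the inhibitory kinase Bckdk (-0.02) did not pass. Of 30 ATF4 and amino acid response genes, which are induced when amino acids run short, 1 rose (3.33%, against 5.54% of all genes). A fall was called in 3 (10%, against 3.15%), and the counts were 0 and 2 without replicate 6. The serine synthesis gene Psat1 was measured at 76.7 to 83.2 CPM (median 82.2) in MET and 65.8 to 75.4 (median 70.1) in MET+LEU, without overlap (-0.20 ± 0.04, adjusted p = 0.00102, against -0.19 and 0.00164 without replicate 6), and Atf4 fell as well (-0.15 ± 0.03, adjusted p = 0.00511, against -0.14 and 0.00812 without replicate 6). The ATF4 targets Asns (-0.01), Ddit3 (0.02) and Trib3 (0.03) did not pass. Of 23 cytosolic aminoacyl-tRNA synthetase genes 3 rose (13%, against 5.54% of all genes) and 1 fell (4.35%, against 3.15%). The counts were 1 and 0 without replicate 6. Rars, for arginine, was measured at 86.1 to 105 CPM (median 90.1) in MET and 97.6 to 132 (median 103) in MET+LEU, with 2 of 6 MET+LEU libraries above MET (0.22 ± 0.05, adjusted p = 0.00645, against 0.14 and 0.037 without replicate 6). Lars, which charges leucine in the cytosol, did not pass (0.05, adjusted p = 0.426).

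Genes of translation and protein breakdown were called higher in shares that differed between lists. Of 82 cytosolic ribosomal protein genes 19 rose (23.2%, against 5.54% of all genes) and 1 fell (1.22%, against 3.15%). The median was 0.04, and 13 rose without replicate 6. Rpl21 was measured at 155 to 187 CPM (median 169) in MET and 198 to 275 (median 221) in MET+LEU, without overlap (0.39 ± 0.05, adjusted p = 8.31e-06, against 0.32 and 1.98e-07 without replicate 6). Rps27l, a variant of Rps27 that p53 can induce, rose (0.28 ± 0.04, adjusted p = 3.66e-05) and Rpl26 fell (-0.49 ± 0.13, adjusted p = 0.0158). Ribosomal protein genes have many processed pseudogene copies, so their values are uncertain in the same way as those of histones. Of 51 translation factors 6 rose (11.8%, against 5.54% of all genes) and 2 fell (3.92%, against 3.15%), and 4 and 2 without replicate 6. Eif3j1, an initiation factor subunit, was measured at 28.1 to 38 CPM (median 34.2) in MET and 39.1 to 77.6 (median 42.8) in MET+LEU, with replicate 6 far above the rest (0.49 ± 0.11, adjusted p = 0.00785, against 0.30 and 0.000603 without replicate 6). Of 47 ribosome biogenesis genes 4 rose (8.51%), near the 5.54% of all genes, and 1 without replicate 6, against 2.65% of all genes. That gene was Utp3, of the small subunit processome, measured at 28.4 to 36.8 CPM (median 33.3) in MET and 37.6 to 77.5 (median 42) in MET+LEU (0.49 ± 0.13, adjusted p = 0.0208, against 0.30 and 0.0226 without replicate 6).

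Of 36 proteasome subunits 7 rose (19.4%, against 5.54% of all genes, median 0.10), and 6 without replicate 6. Psmc3, an ATPase of the regulatory particle, was measured at 265 to 288 CPM (median 275) in MET and 293 to 342 (median 313) in MET+LEU, without overlap (0.19 ± 0.04, adjusted p = 0.000961, against 0.16 and 0.00299 without replicate 6). Of 17 tested muscle breakdown ligases and their regulators edgeR called 0, against 8.69% of all genes. There were 3 higher at an unadjusted p under 0.05, 1 by DESeq2 and 0 by limma-voom. Nedd4, a ubiquitin ligase, was measured at 1442 to 1524 CPM (median 1469) in MET and 1491 to 1634 (median 1553) in MET+LEU (0.08 ± 0.03, adjusted p = 0.104). The atrophy ligases Fbxo32 (0.02) and Trim63 (0.09) did not pass.

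Mitochondrial genes were higher in part. Of 79 nuclear genes of oxidative phosphorylation 15 rose (19%, against 5.54% of all genes, median 0.06), and 11 without replicate 6. Cycs, for cytochrome c, was measured at 48.4 to 55.3 CPM (median 51.3) in MET and 62 to 87.1 (median 66.1) in MET+LEU, without overlap (0.42 ± 0.06, adjusted p = 6.43e-05, against 0.34 and 3.09e-05 without replicate 6). All 13 mRNAs of the mitochondrial genome had a log2 fold change above 0, with a median of 0.58, and 6 passed (46.2%, against 5.54% of all genes). Without replicate 6, of whose counts 7.64% were mitochondrial ribosomal RNA, the median was 0.26 and 2 passed. The part of this library's composition in the rise was not tested further. For mt-Co1, a subunit of cytochrome oxidase, the values were 10246 to 12512 CPM (median 11014) in MET and 12936 to 22105 (median 14001) in MET+LEU, without overlap (0.42 ± 0.10, adjusted p = 0.00835, against 0.28 and 0.0164 without replicate 6). Of 78 mitochondrial ribosomal proteins 11 rose (14.1%, against 5.54% of all genes) and 1 fell (1.28%, against 3.15%). The counts were 5 and 0 without replicate 6. Mrps15 was measured at 20.9 to 26.9 CPM (median 22.9) in MET and 25.3 to 34.1 (median 28.3) in MET+LEU, with 4 of 6 MET+LEU libraries above MET (0.30 ± 0.07, adjusted p = 0.00281, against 0.25 and 0.0128 without replicate 6).

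In energy metabolism, 4 of 32 genes of glycolysis and pyruvate rose, and 5 without replicate 6. Pdha1, a catalytic subunit of pyruvate dehydrogenase, was measured at 263 to 286 CPM (median 270.2) in MET and 296 to 321 (median 300.5) in MET+LEU, without overlap (0.16 ± 0.03, adjusted p = 0.00111, against 0.14 and 0.00334 without replicate 6). Pdk4, a kinase that inhibits this enzyme, rose as well (0.29 ± 0.06, adjusted p = 0.00407), while Ldha did not pass (0.02). Of 19 tested genes of AMPK and metformin targets 1 rose (5.26%), close to the 5.54% of all genes. It was Psenen, which encodes the metformin-binding protein PEN2, measured at 19.7 to 22.6 CPM (median 21.7) in MET and 23.6 to 25.8 (median 24.9) in MET+LEU (0.22 ± 0.06, adjusted p = 0.0218, against 0.22 and 0.0301 without replicate 6). The AMPK catalytic subunits Prkaa1 (0.07) and Prkaa2 (0.02) did not pass.

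Of 35 cholesterol and fatty acid genes 5 rose (14.3%, against 5.54% of all genes) and 4 fell (11.4%, against 3.15%), and 2 and 4 without replicate 6. Srebf2, the transcription factor of sterol synthesis, was measured at 337 to 383 CPM (median 359) in MET and 271 to 329 (median 306) in MET+LEU, without overlap (-0.23 ± 0.04, adjusted p = 0.000764, against -0.21 and 0.000911 without replicate 6). The synthesis enzymes Fdps (0.20, adjusted p = 0.0102, against 0.17 and 0.0368 without replicate 6), Hmgcs1 (0.15, adjusted p = 0.0232, against 0.11 and 0.128 without replicate 6) and Idi1 (0.23, adjusted p = 0.031, against 0.18 and 0.129 without replicate 6) rose. Collagens and other matrix genes were called in both directions, with 8 higher (16.3%, against 5.54% of all genes) and 7 lower (14.3%, against 3.15%) of 49. The counts were 5 and 7 without replicate 6, against 2.65% and 1.87% of all genes. Col1a1, a chain of type I collagen, was measured at 704 to 827 CPM (median 767) in MET and 572 to 651 (median 602) in MET+LEU, without overlap (-0.33 ± 0.05, adjusted p = 2.68e-05, against -0.32 and 0.000125 without replicate 6). The protease inhibitor Timp3 rose (0.26 ± 0.04, adjusted p = 0.000176).

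The p53 pathway and inhibitors of the cell cycle had 2 genes upregulated (5.88%, against 5.54% of all genes) and 5 downregulated (14.7%, against 3.15%) of 34, and 1 and 3 without replicate 6. Cdkn1a, which encodes p21, was measured at 2190.3 to 2383 CPM (median 2316) in MET and 1939 to 2293 (median 2107) in MET+LEU and did not pass (-0.12 ± 0.04, adjusted p = 0.0685, against -0.10 and 0.126 without replicate 6). Trp53 was measured at 67.7 to 81.5 CPM (median 77) in MET and 59.3 to 72.9 (median 70) in MET+LEU, and its fall (-0.16 ± 0.05, adjusted p = 0.0438) no longer passed (-0.13 and 0.111 without replicate 6). Cdkn2c, for the inhibitor p18, was measured at 14.3 to 17.2 CPM (median 15.5) in MET and 10.9 to 14.5 (median 11.8) in MET+LEU, with 5 of 6 MET+LEU libraries below MET (-0.34 ± 0.09, adjusted p = 0.00769, against -0.32 and 0.0172 without replicate 6). Cdkn1b, for p27 (0.16, adjusted p = 0.0356, against 0.11 and 0.171 without replicate 6), and Rbl2, a relative of the retinoblastoma protein (0.16 ± 0.04, adjusted p = 0.00812, against 0.13 and 0.0319 without replicate 6), rose. Pdlim4, a cytoskeletal adaptor, was measured at 136 to 143 CPM (median 137) in MET and 113 to 129 (median 124) in MET+LEU, without overlap (-0.17 ± 0.04, adjusted p = 0.00896, against -0.15 and 0.016 without replicate 6).

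**Figure D4:**
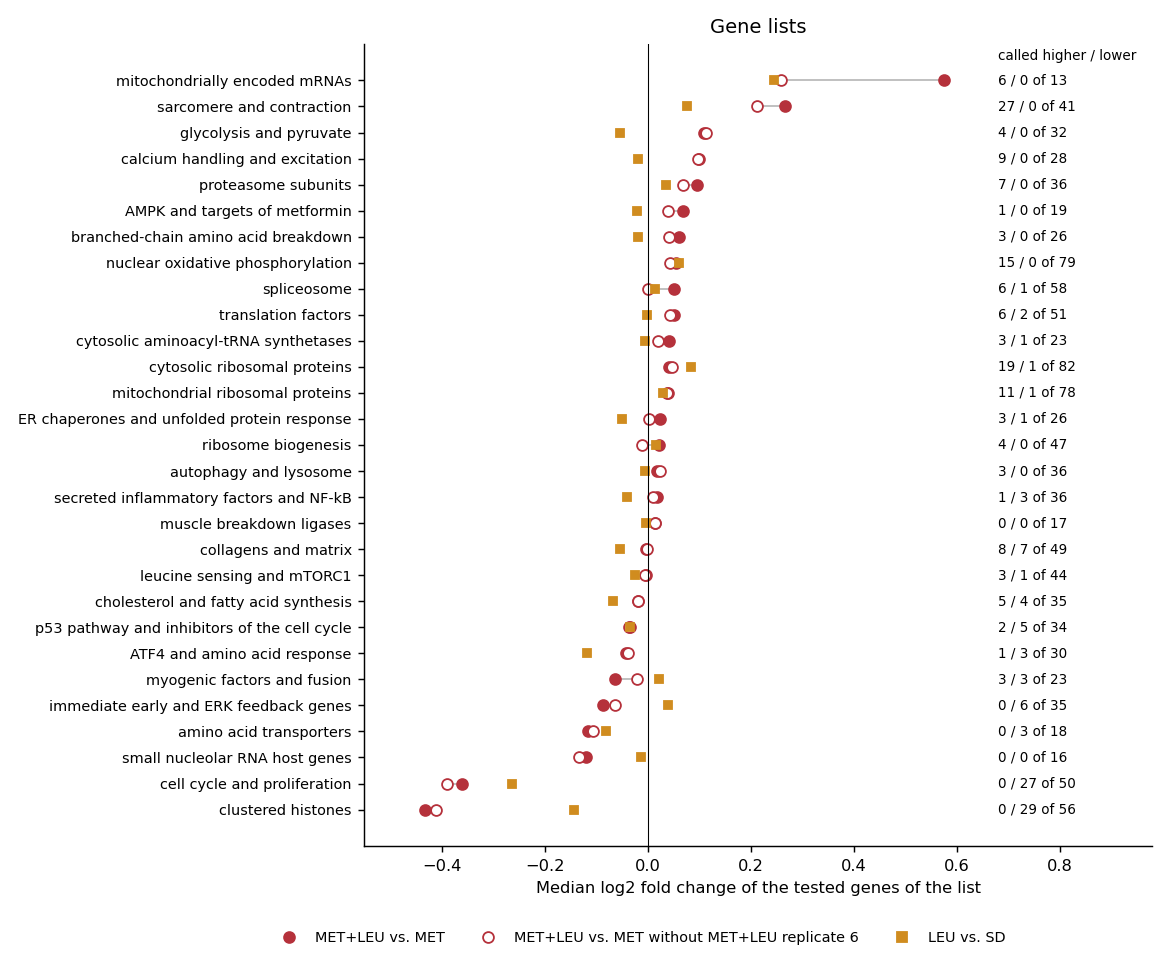
Median log2 fold change of the tested genes of each of 29 lists in MET+LEU vs. MET with all libraries (filled circle), without MET+LEU replicate 6 (open circle) and in LEU vs. SD (square), with the counts called higher and lower at the right. The sarcomere list lies at 0.27 and 0.21, the cell cycle list at -0.36 and -0.39 and the histone list at -0.43 and -0.41 with and without replicate 6.

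Over all genes, 357 passed with and without replicate 6, did not overlap between the groups and averaged 1 or more in log2 CPM. Of these, 338 were protein-coding, 224 higher and 114 lower. The 8 protein-coding genes with the largest falls were 4 histone genes described above, Neurl1b, Mxd3, Kif18b and Nek2. Neurl1b, a ubiquitin ligase of Notch ligands (chr17:26414829-26446349), was measured at 6.76 to 9.92 CPM (median 8.42) in MET and 3.16 to 5.16 (median 3.94) in MET+LEU (-1.06 ± 0.12, adjusted p = 5.66e-07, against -1.02 and 2.02e-07 without replicate 6). Mxd3, a MAX-binding repressor of cycling cells (chr13:55325168-55329823), was measured at 3.08 to 5.12 CPM (median 4.11) in MET and 1.34 to 2.56 (median 2.23) in MET+LEU (-0.89 ± 0.16, adjusted p = 0.000374). In both genes, as in all genes of this group, each MET+LEU library lay below each MET library. The mitotic kinesin Kif18b (chr11:102905529-102925124) was measured at 5.3 to 8.64 CPM (median 6.2) in MET and 2.92 to 4.91 (median 3.98) in MET+LEU (-0.76 ± 0.14, adjusted p = 0.000563). The centrosomal kinase Nek2 (chr1:191821444-191833050) was measured at 5.37 to 8.71 CPM (median 5.89) in MET and 3.22 to 4.76 (median 3.53) in MET+LEU (-0.72 ± 0.14, adjusted p = 0.000818).

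The 8 protein-coding genes with the largest rises were Lars2, Tnni2 and 6 genes of low level. Omd, a small leucine-rich proteoglycan of the matrix (chr13:49582462-49592822), was measured at 6.91 to 10.1 CPM (median 8.73) in MET and 11.6 to 20.9 (median 14.5) in MET+LEU (0.83 ± 0.13, adjusted p = 7.62e-05, against 0.71 and 7.56e-05 without replicate 6). Pin4, a parvulin-type prolyl isomerase (chrX:102119447-102127669), was measured at 4.46 to 7.3 CPM (median 5.86) in MET and 7.54 to 16.7 (median 8.95) in MET+LEU (0.75 ± 0.14, adjusted p = 0.00083, against 0.54 and 0.00282 without replicate 6), with the highest value in replicate 6. Dkk2, a secreted modulator of Wnt signals (chr3:132085292-132180304), was measured at 3.27 to 5.21 CPM (median 4.26) in MET and 5.48 to 8.91 (median 6.52) in MET+LEU (0.70 ± 0.15, adjusted p = 0.00208). In these and the next genes every MET+LEU library exceeded every MET library. Pappa2, a protease that cleaves IGF-binding proteins (chr1:158711727-158980490), was measured at 2.01 to 2.63 CPM (median 2.25) in MET and 2.71 to 3.9 (median 3.62) in MET+LEU (0.61 ± 0.15, adjusted p = 0.00656). Gm10282 (chr8:72304110-72305260) was measured at 6.04 to 9.46 CPM (median 7.54) in MET and 10.2 to 15.2 (median 12.6) in MET+LEU (0.68 ± 0.10, adjusted p = 2.68e-05), and F830016B08Rik (chr18:60293380-60303016) at 2.82 to 3.89 CPM (median 2.97) in MET and 4.4 to 7.45 (median 4.91) in MET+LEU (0.73 ± 0.13, adjusted p = 0.000516).

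Lars2, the leucyl-tRNA synthetase of mitochondria (chr9:123366927-123462666), had the largest rise of the protein-coding genes that met these conditions. In MET replicates 1 to 6 it was measured at 118.5, 106.8, 149.5, 227.6, 174.8 and 161.7 CPM. In MET+LEU replicates 1 to 6 it was measured at 428.1, 369.5, 337.4, 910.8, 587.3 and 1401 CPM (2.10 ± 0.37, adjusted p = 0.00113, against 1.74 and 0.0032 without replicate 6). Nuclear ribosomal RNA took 0.946%, 0.754%, 0.659%, 1.96%, 1.31% and 5.85% of the counts of the same MET+LEU libraries, so the libraries stood in the same order for both. The small non-coding gene Gm24187 (chr13:9834469-9834525) was measured at 4.02 to 9.07 CPM (median 5.6) in MET and 9.97 to 40.1 (median 24.9) in MET+LEU, without overlap (2.05 ± 0.33, adjusted p = 0.000483, against 1.97 and 0.00118 without replicate 6). The part of ribosomal RNA in the values of Lars2 and Gm24187 was not tested.

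Ribosomal RNA genes varied widely between the MET+LEU libraries. The nuclear gene CT010467.1 was measured at 3059.8 to 7264 CPM (median 5048) in MET and 6694 to 72844 (median 11449) in MET+LEU (2.15 ± 0.49, adjusted p = 0.00707, against 1.22 and 0.0473 without replicate 6). The mitochondrial mt-Rnr2 was measured at 873 to 1740.4 CPM (median 1377) in MET and 2012 to 42476 (median 2950.3) in MET+LEU, without overlap (2.77 ± 0.56, adjusted p = 0.00337, against 1.00 and 0.000655 without replicate 6). By contrast, mt-Rnr1 passed only with replicate 6 (1.70 ± 0.51, adjusted p = 0.0369, against 0.18 and 0.711 without replicate 6), and the 5.8S gene n-R5-8s1 passed, as lower, only without it (0.03 ± 0.57, adjusted p = 0.985, against -1.49 and 0.0311 without replicate 6). Among other non-coding genes, Rprl3, a ribonuclease P RNA-like gene (chr8:3803069-3803358), was measured at 8.16 to 15.9 CPM (median 11.9) in MET and 4.1 to 7.34 (median 5.71) in MET+LEU, without overlap (-1.10 ± 0.16, adjusted p = 3.66e-05, against -1.08 and 0.00019 without replicate 6), and Gm38318 (chr8:108867562-108869267) at 2.21 to 3.83 CPM (median 2.87) in MET and 1.05 to 2.06 (median 1.34) in MET+LEU (-0.97 ± 0.19, adjusted p = 0.00116).

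Leucine was also given without metformin, and LEU vs. SD shares no library with MET+LEU vs. MET. LEU vs. SD had 88 genes called (0.553%), 37 higher (0.233%) and 51 lower (0.321%). Of these, 60 were called in the same direction in MET+LEU vs. MET, 21 upregulated and 39 downregulated, which is 68.2% of the LEU vs. SD calls and 4.34% of the 1382. Of the 1382 genes, 82.1% had the same sign in LEU vs. SD, 79.2% of those upregulated and 87% of those downregulated, against 61.2% of all genes tested. The median ratio of the log2 fold change in LEU vs. SD to that in MET+LEU vs. MET was 0.32 over these genes, which were chosen for their change in MET+LEU vs. MET. The number of calls in LEU vs. SD depended on the estimate of the spread. With MET+LEU replicate 6 left out of the shared fit it was 269 (168 higher and 101 lower, 1.67%). In that fit 124 genes were called in both comparisons in the same direction, 46.1% of the LEU vs. SD calls and 17.1% of the 726, and 4 in opposite directions.

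Some genes of dividing cells were also lower in LEU vs. SD. Over all genes tested 0.321% were called lower and 0.233% higher in this comparison. The list counts here come from the fit of all 30 libraries. Of the 50 cell cycle genes 12 were downregulated and 0 upregulated (median -0.26). Of 56 histones 4 were downregulated and 1 upregulated (median -0.14). Ccna2 averaged 25 ± 1.8 CPM in SD (SD, n = 6 in each group), 17.1 ± 1.88 in LEU, 23.3 ± 2.77 in MET and 15.7 ± 1.81 in MET+LEU (LEU vs. SD -0.54, adjusted p = 7.92e-05). Top2a (-0.46, adjusted p = 0.00203), Kif20a (-0.48, adjusted p = 0.00427), Ccnb1, for cyclin B1 (-0.70, adjusted p = 0.000149), and Neurl1b (-0.60, adjusted p = 0.00427) were among the genes that fell in LEU vs. SD. The sarcomere list had a median of 0.08 in LEU vs. SD, with 2 of 41 upregulated, against 0.233% of all genes tested. These were Myh1 (0.25, adjusted p = 0.0361) and Tnnc2 (0.60, adjusted p = 0.036). Myh1 averaged 1764 ± 78 CPM in SD, 2094 ± 79.9 in LEU, 1812 ± 100.2 in MET, 2421 ± 358 in MET+LEU and 2316 ± 104 in 2% HS. Slc7a5 (-0.16, adjusted p = 0.0441), Col1a1 (-0.20, adjusted p = 0.0408), Psmc3 (0.16, adjusted p = 0.0302), Rpl21 (0.22, adjusted p = 0.0324) and Igfbp7, a secreted IGF-binding protein (0.31, adjusted p = 0.0274), also passed in LEU vs. SD in the direction they took in MET+LEU vs. MET.

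**Figure D5:**
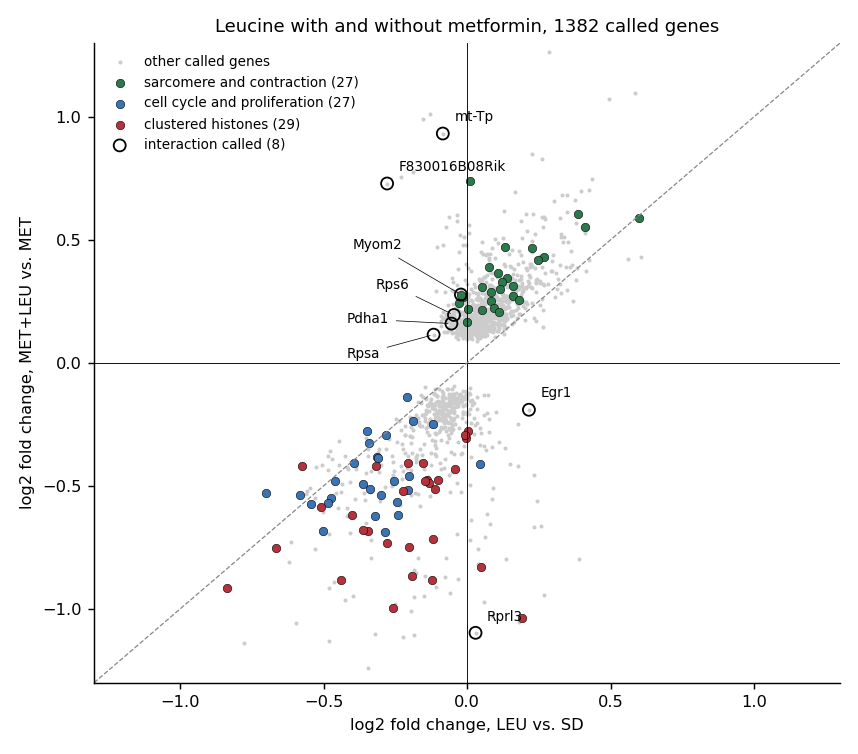
Log2 fold change in MET+LEU vs. MET (vertical) against LEU vs. SD (horizontal) for the 1382 genes called in MET+LEU vs. MET, 14 of them outside the axes, with called sarcomere, cell cycle and histone genes coloured and the 8 genes called in the interaction circled. Of the points, 82.1% have the same sign on both axes.

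Whether the change with leucine differed with and without metformin was tested for each gene by the interaction of metformin and leucine. It called 8 genes (0.0503%), 6 with a higher (0.0377%) and 2 with a lower (0.0126%) log2 difference, with 1389 at an unadjusted p under 0.05, and 10 without replicate 6. Leaving out each of the 24 libraries in turn gave 1 to 11. Egr1, an immediate early transcription factor, averaged 171 ± 8.9 CPM in SD, 199 ± 10.7 in LEU, 196 ± 11.8 in MET and 172 ± 5.52 in MET+LEU (SD, n = 6 in each group). It rose in LEU vs. SD (0.22, adjusted p = 0.0037) and fell in MET+LEU vs. MET (-0.19 ± 0.04, adjusted p = 0.00232), a difference of -0.41 ± 0.06, adjusted p = 9.49e-05, and it was called in 36 of 36 alternative fits. Myom2 averaged 782 ± 34.4 CPM in SD, 769.7 ± 23 in LEU, 725 ± 31.7 in MET and 879 ± 70.8 in MET+LEU, and its difference (0.30 ± 0.06, adjusted p = 0.0156) was called in 29 of them. It was the 1 sarcomere gene called. F830016B08Rik (1.01 ± 0.19, adjusted p = 0.0156) was called in 30. The other 5 genes were called in 16 or fewer of the 36 fits. These were Rprl3 in 16 (-1.13 ± 0.22, adjusted p = 0.0336) and the mitochondrial proline tRNA mt-Tp in 14 (1.02 ± 0.21, adjusted p = 0.0336). The ribosomal proteins Rpsa (0.23 ± 0.05, adjusted p = 0.0336) and Rps6 (0.24 ± 0.05, adjusted p = 0.0336) were called in 10 and 8, and Pdha1 in 7 (0.21 ± 0.04, adjusted p = 0.0336). For the genes of division and histones with the smallest p in MET+LEU vs. MET, the interaction did not pass, at -0.03 ± 0.11, adjusted p = 0.966 for Ccna2, -0.74 ± 0.18, adjusted p = 0.146 for Hist1h4f and -0.76 ± 0.17, adjusted p = 0.0701 for Hist1h4k.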

How the data were processed

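RNA from C2C12 myotubes was sequenced as 150 by 150 base reads after ribosomal RNA depletion with a stranded total RNA kit. The values used are raw counts per gene, deposited by the authors as 1 table of 30 libraries. Per the submitters' processing notes the tools were cutadapt 1.16, STAR 2.7.6a, featureCounts 1.6.3 and DESeq2 1.30.1 with GRCm38. The annotation release, the strand setting and the treatment of reads that match several places are not given in the sources used here, so antisense, overlapping and near-identical genes are uncertain. Groups came from the labels, 6 libraries in each.

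Counts were fitted with edgeR 4.0.16 (R 4.3.3) with TMM factors, a mean for each of the 5 groups over all 30 libraries and the robust quasi-likelihood F test, after filterByExpr (minimum count 10, minimum total 15). p-values were adjusted over all genes tested (Benjamini-Hochberg, 0.05). Comparisons were MET+LEU vs. MET, LEU vs. SD and their interaction. The fit was tested on simulated data. Shares of ribosomal RNA were compared by exact permutation tests (scipy 1.17.1). Alternatives were other scalings, DESeq2 1.42.0, limma-voom (limma 3.58.1), other filters, a replicate block, a GC offset, removal of ribosomal RNA genes and leaving out each library. Symbols and coordinates are from GENCODE M21 (15886 of 15907 tested genes matched) and promoters from RefSeq (GRCm38.p6). Of the list entries, 33 did not match a symbol. No 2 libraries of a group agreed within sampling noise (lowest chi-square per degree of freedom 2.33).

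Genes named were the 8 protein-coding and 2 non-coding genes with the largest change in each direction among those that passed with and without MET+LEU replicate 6, did not overlap between the groups and averaged 1 or more in log2 CPM. The others were the 3 genes with the smallest p of each list, the genes the study names, those of the interaction and ribosomal RNA genes. Further members are named to show what a list holds, and were chosen after their values were seen. The comparison, the lists and their members were chosen with earlier results of these data known.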

Additional observations from a re-analysis of the deposited data

Results flagged for a closer look

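In groups of 6 libraries, a value was marked where its gap to the nearest other value, divided by the range of the group, exceeded Dixon's critical value, which chance passes in about 1 of 20 groups. Of 122 groups looked at, 21 (17.2%) were marked, 19 of them at MET+LEU replicate 6. In that library the shares of nuclear, mitochondrial and total ribosomal RNA were 5.85%, 7.64% and 13.5% of the counts. The muscle genes marked there, above the other 5 MET+LEU libraries, were Myh1 at 3132, Myh3 at 2049.9, Myh8 at 1125, Myh4 at 128 and Tnni2 at 704 CPM. Not all muscle genes were highest in it. Myh7 was at 243.4 CPM against 271.1 in MET+LEU replicate 2, and Mef2c at 1009 against 1025. The mitochondrial genes marked there were mt-Rnr2 at 42476 and mt-Co1 at 22105 CPM. Marked genes of signalling, translation and RNA processing were Rps6kb1 at 152, Rars at 132, Rpl21 at 275, Eif3j1 at 77.6, Utp3 at 77.5 and Srsf5 at 312 CPM. Dld at 194, Igfbp7 at 248 and Pin4 at 16.7 CPM completed the set. In MET the marked values were Nek2 at 8.71 CPM in replicate 6 and Rars at 105 CPM in replicate 5. The part of ribosomal RNA in the levels of MET+LEU replicate 6 was not tested.

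In the main fit the change with leucine differed with and without metformin in 8 genes (edgeR's quasi-likelihood F test of the interaction, Benjamini-Hochberg adjustment). Of these, only Egr1 was called in all 36 alternative fits, and the call of the others depended on the fit. The log2 difference was -0.41 for Egr1 (adjusted p = 9.49e-05), 0.30 for Myom2 and 1.01 for F830016B08Rik (adjusted p = 0.0156 each). It was 1.02 for mt-Tp, -1.13 for Rprl3, 0.21 for Pdha1, 0.24 for Rps6 and 0.23 for Rpsa (adjusted p = 0.0336 each).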

How the results depend on the processing

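For MET+LEU vs. MET (1382 genes) the count was 589 with only the libraries of these groups in the fit, 480 at an adjusted p under 0.01 and 726 to 1558 when each of the 12 libraries was left out in turn, the lowest without MET+LEU replicate 6. Without that library it was 881 with only these groups in the fit and 861 with a GC offset, both chosen after seeing the data. For LEU vs. SD (88) it was 170 by DESeq2, 190 by limma-voom, 197 with only these groups, 174 with the replicate block and GC offset, 269 without MET+LEU replicate 6 in the shared fit (chosen after seeing the data), 25 at 0.01 and 43 to 105 when each library was left out. For the interaction (8) it was 5 with relative log expression factors, 4 with upper-quartile factors, 22 by DESeq2, 14 by limma-voom, 3 with every gene above 5 counts in total, 1 with only these groups, 5 without the robust option, 4 without ribosomal RNA genes, 1 at 0.01 and 1 to 11 when each library was left out. The causes were not tested.

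Replicate numbers did not pair the libraries of MET and MET+LEU (correlation of same-numbered deviations -0.0312 to 0.142, mean 0.0422, against -0.00848 for other numbers, with 2 of 6 numbers correlating best with their own). With the replicate block the counts were 1583 (999 higher and 584 lower) for MET+LEU vs. MET and 17 for the interaction, or 19 with the GC offset as well.

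Of 3010 values of the 116 named genes under alternatives, 2775 kept their direction and side of the threshold, 183 no longer passed, 44 newly passed and 8 changed sign. All 8 were for n-R5-8s1, MET+LEU vs. MET (0.03), at -1.39 by limma-voom, -0.40 with the replicate block, -0.38 with the block and GC offset, -0.11 without MET replicate 2 or 5, and -1.49 without MET+LEU replicate 6 in 3 fits, with -1.49 to 0.24 when each library was left out. The difference in ribosomal RNA share (2.74 percentage points) was 0.792 to 3.23 when each library was left out, the lowest without MET+LEU replicate 6. The median of the 13 mitochondrial mRNAs (0.576) was 0.230 to 0.689 over all alternatives. Genes near the floor of 3 counts cannot be compared at this depth.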

Other observations

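Over all genes tested 5.54% were called higher and 3.15% lower in MET+LEU vs. MET, or 2.65% and 1.87% without MET+LEU replicate 6. Of 58 spliceosome genes 6 were upregulated (10.3%) and 1 downregulated (1.72%), and 3 and 2 without replicate 6. Srsf5, a splicing factor, was measured at 205 to 228 CPM (median 214) in MET and 233 to 312 (median 242) in MET+LEU (0.24 ± 0.05, adjusted p = 0.00459, edgeR). Of 26 ER chaperone and unfolded protein response genes 3 rose (11.5%) and 1 fell (3.85%), and 1 and 1 without replicate 6. Hsp90b1, a chaperone of the ER, was measured at 407 to 441 CPM (median 416) in MET and 438 to 556 (median 462) in MET+LEU (0.18 ± 0.04, adjusted p = 0.00303, edgeR). Of 36 autophagy and lysosome genes 3 rose (8.33%), and 2 without replicate 6. Ctsl, for the lysosomal protease cathepsin L, was measured at 239.9 to 265 CPM (median 243) in MET and 262 to 298 (median 281) in MET+LEU (0.18 ± 0.04, adjusted p = 0.00396, edgeR).

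Of 36 tested genes of secreted inflammatory factors and NF-kB 1 rose (2.78%, against 5.54% of all genes) and 3 fell (8.33%, against 3.15%). The counts were 1 and 1 without replicate 6. Igfbp7, a secreted IGF-binding protein, was measured at 139 to 173 CPM (median 163) in MET and 170.4 to 249 (median 185) in MET+LEU (0.27 ± 0.07, adjusted p = 0.0115, edgeR), and the chemokine Cxcl12 fell (-0.21 ± 0.06, adjusted p = 0.0138, edgeR). Of 16 tested host genes of small nucleolar RNAs edgeR called 0, with 1 higher and 5 lower at an unadjusted p under 0.05, 2 lower by DESeq2 and 0 by limma-voom. Snhg20 was measured at 5.38 to 8.95 CPM (median 7.48) in MET and 3.89 to 6.49 (median 5.3) in MET+LEU (-0.41 ± 0.14, adjusted p = 0.0546, edgeR). Among non-coding classes, 11 of 391 lincRNA genes rose and 3 fell, and 15 of 522 processed pseudogenes rose and 7 fell. Of 98 snoRNA genes 4 fell, and of 9 mitochondrial tRNA genes 3 rose. Over all genes tested 5.54% rose and 3.15% fell.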
